A study of Mus musculus with 9 samples.

Results

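A group of 1185 narrow sites that carried H3K4me3 alone in wild-type mouse spermatocytes and still had an H3K4me3 interval in 2 Prdm9 mutants was examined. These were 1185 of the 18427 intervals of the wild-type H3K4me3 list (6.43%). They were chosen by measured values: a wild-type width below 770 bp, an overlap of at least 1 bp with an interval of each mutant's H3K4me3 list, and no overlap with the wild-type list of intervals that carry both H3K4me3 and H3K36me3 (here called double-marked). Widths, presence in the H3K4me3 lists and wild-type double-marking were therefore fixed by the choice and are given as descriptions. Double-marking in the mutants, the relation of the mutant widths to each other and the position in the genome were not used in it. Chromatin immunoprecipitation with sequencing (ChIP-seq) had been run on spermatocytes taken 14 days after birth from 3 genotypes. These were wild-type C57BL/6J, C57BL/6J homozygous for glutamate 360 of PRDM9 changed to proline (PRDM9-EP/EP, strain allele em2Kpgn) and C57BL/6J homozygous for the same residue changed to lysine (PRDM9-EK/EK, strain allele em3Kpgn). Each genotype had 2 H3K4me3 libraries and 1 H3K36me3 library, and the labels call both substitutions severe catalytic hypomorphs, so by its label neither is a null. Each genotype is represented by 1 list per kind of interval, so the values have no replicate error, the read depth behind an interval is unknown, and the tests compare lists of intervals and not mice.

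PRDM9 is a meiosis-specific protein that binds DNA through an array of zinc fingers and methylates histone H3 on lysine 4 and lysine 36 of the nucleosomes beside its binding site. Sites that carry both marks are where programmed DNA double-strand breaks form and recombination begins in the early spermatocyte. H3K4me3 is also placed by other enzymes at the starts of active genes, and H3K36me3 by SETD2 along the bodies of transcribed genes, so neither mark alone is specific to PRDM9.

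Sequence is shown for the named sites that overlap a promoter window, because there the interval lies on an annotated gene start. Both windows come from RefSeq (GRCm38.p6, the assembly that mm10 is drawn from), and both are on the plus strand, 5′ to 3′, with the bases inside the narrow H3K4me3 interval in capitals. The first is chr10:70204414-70204713 at Mrln, which encodes myoregulin, a small inhibitor of the muscle calcium pump. The second is chr2:148798589-148798888 at Cst8, which encodes a cystatin-like protein of the testis and epididymis.
Mrln: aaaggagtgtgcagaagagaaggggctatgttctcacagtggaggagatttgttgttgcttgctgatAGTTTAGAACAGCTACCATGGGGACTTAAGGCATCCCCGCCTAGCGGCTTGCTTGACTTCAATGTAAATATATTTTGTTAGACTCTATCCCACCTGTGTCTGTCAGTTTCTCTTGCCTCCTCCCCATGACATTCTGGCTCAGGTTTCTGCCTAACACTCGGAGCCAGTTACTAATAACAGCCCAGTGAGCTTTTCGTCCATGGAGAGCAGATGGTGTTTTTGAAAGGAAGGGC
Cst8: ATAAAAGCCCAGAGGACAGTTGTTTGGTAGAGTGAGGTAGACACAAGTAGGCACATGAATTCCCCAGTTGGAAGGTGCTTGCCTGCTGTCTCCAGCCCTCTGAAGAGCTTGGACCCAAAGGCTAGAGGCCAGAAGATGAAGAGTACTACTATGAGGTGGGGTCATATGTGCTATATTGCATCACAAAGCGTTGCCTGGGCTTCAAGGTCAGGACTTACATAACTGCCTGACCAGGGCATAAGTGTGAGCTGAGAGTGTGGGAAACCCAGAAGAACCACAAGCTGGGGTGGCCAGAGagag

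The wild-type interval covered 233 of the 300 bases of the Mrln window and 296 of the 300 bases of the Cst8 window. The Mrln window held 4 CG dinucleotides and the Cst8 window 1. Of the 1153 sites on chromosomes covered by the window table, 24 overlapped a RefSeq promoter window. The share over all wild-type sites was not computed, so whether this count is high or low is not known. Those 24 windows held a median of 4 CG dinucleotides (range 1 to 47) and had a median G+C content of 47.3%, against medians of 7 CG and 52.7% over all 32851 windows. The GC-box letters GGGCGG, searched on both strands, occurred in 4 of the 24 windows (16.7%) and in 35.7% of all windows. The letters CCAAT occurred in 7 of the 24 (29.2%) against 37.4%, and TATAAA in 3 (12.5%) against 13.6%. The windows touched by the sites belong to genes of any biotype, and a match of letters is a description only.

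The median width of the sites was closer to that of wild type in EK than in EP. The wild-type interval had a median width of 582 bp (quartiles 525 and 670 bp, range 131 to 769 bp). The EP width at the same sites had a median of 522 bp (quartiles 341 and 618 bp, range 105 to 1479 bp). The EK width had a median of 556 bp (quartiles 478 and 662 bp, range 112 to 1467 bp). Relative to wild type, the median ratio of widths was 0.947 in EP and 1.00 in EK, and the lower quartile was 0.609 in EP and 0.872 in EK. One interval in each mutant was found at 1174 of the sites (99.1%), and only these enter the counts of borders that follow. The EP interval was narrower than the wild-type interval at 673 sites, equal in width at 224 and wider at 277. The EK interval was narrower at 430, equal at 330 and wider at 414.

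**Figure D1:**
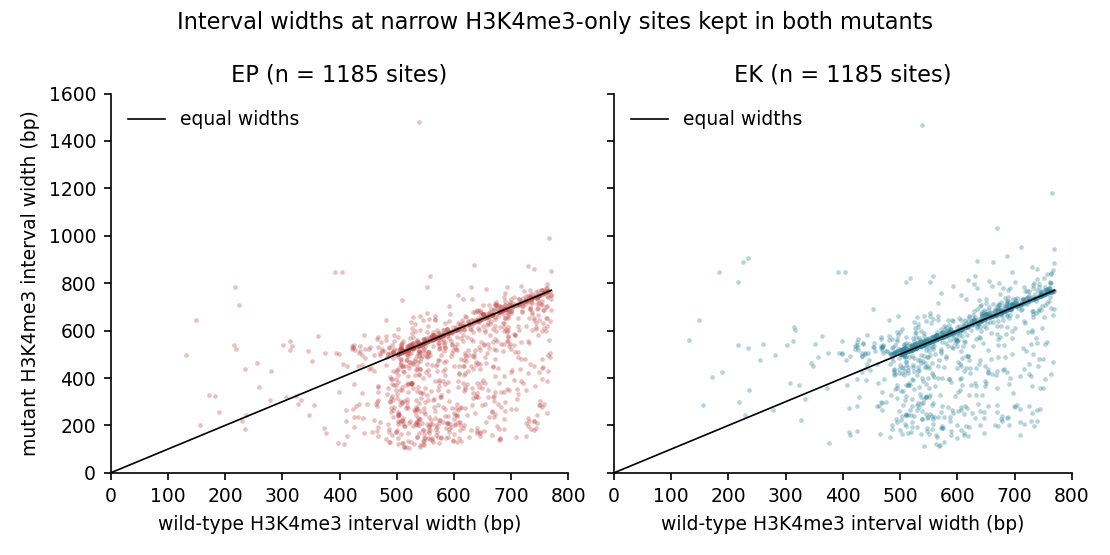
Each point is 1 of the 1185 sites, with the wild-type H3K4me3 interval width on the x axis and the EP (left) or EK (right) interval width on the y axis, both in bp; the line marks equal widths. Points crowd along the line in both panels, and the EP panel has more points far below it. Of the 1174 sites with 1 interval in each mutant, 219 had an EP interval under 50% of the wild-type width against 117 in EK.

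Many borders were the same to the base in different lists. They were counted at the narrow kept sites only, so whether their shares differ from those of other kept sites is not known. Both borders of the EP interval matched those of wild type at 223 of the 1174 sites (19.0%), and both borders of the EK interval did at 330 (28.1%). A single border matched at a further 781 sites in EP (66.5%) and 725 in EK (61.8%). All 3 lists had the same interval at 205 sites (17.5%), and at another 147 the EP and EK intervals were identical to each other but not to wild type. No border was shared by any 2 lists at 27 sites (2.30%). The EP interval lay wholly inside the EK interval, or coincided with it, at 980 sites (83.5%), and the EK interval inside the EP interval at 523 (44.5%). Whether borders were set by the common site set is not given in the sources used here. Some mutant intervals were not contained in that of wild type: 355 EP intervals (30.2%) and 447 EK intervals (38.1%) reached outside the wild-type interval.

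Where the mutants differed, the EK interval was usually the wider. EP and EK widths were unequal at 833 sites, of which the EK interval was wider at 657 and the EP interval at 176. The EK share of 78.9% (95% Wilson interval 76.0 to 81.5%) departed from equal shares (two-sided exact sign test, p = 5.67e-66). That test counts sites from 1 list per mutant, and a few sites share a mutant interval. Its p-value therefore does not measure spread between mice or libraries. Over all wild-type sites kept in both mutants the EK interval was the wider at 58.1% of those with unequal widths. It was the wider at 67.6% of the wider H3K4me3-only sites kept in both, at 52 of 80 narrow sites double-marked in wild type (65%), and at 20.7% of the wider sites double-marked in wild type. The median of EK minus EP width was 58 bp at the 833 sites and 13 bp over all 1185. The wild-type and EP lists were carried over from an earlier study, whereas the EK list rests on 1 earlier and 1 new library, so mutation and batch cannot be told apart.

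The sites at the width limit are described with no test. The 3 widest sites included were each 769 bp in wild type. The first, within Frmd4a on chromosome 2 (4389370 to 4390138), was 734 bp for EP and 692 bp for EK. The second, within Ralyl on chromosome 3 (13756724 to 13757492), was 749 and 943 bp, and the third, within Smurf1, which encodes a ubiquitin ligase, on chromosome 5 (144920340 to 144921108), was 850 and 887 bp. Just outside were 3 sites of 770 bp, with EP widths of 499, 510 and 788 bp and EK widths of 788, 498 and 788 bp. No mutant double-marked interval overlapped any of these 6.

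Among wild-type H3K4me3-only sites, the share kept in both mutants was highest from 500 to below 550 bp and generally lower in wider bins, though not at every step, as a description with no test since width and retention chose the sites. It was 56.6% of 511 sites from 500 to below 550 bp wide, 35.8% of 466 sites from 600 to below 650 bp, 17.7% of 775 sites from 750 to below 800 bp, 18.2% of 683 sites from 800 to below 850 bp and 6.79% of 560 sites from 1000 to below 1050 bp. Of the 3370 H3K4me3-only sites below the limit, 1185 were kept in both mutants (35.2%), 304 in EK alone, 64 in EP alone and 1817 in neither.

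**Figure D2:**
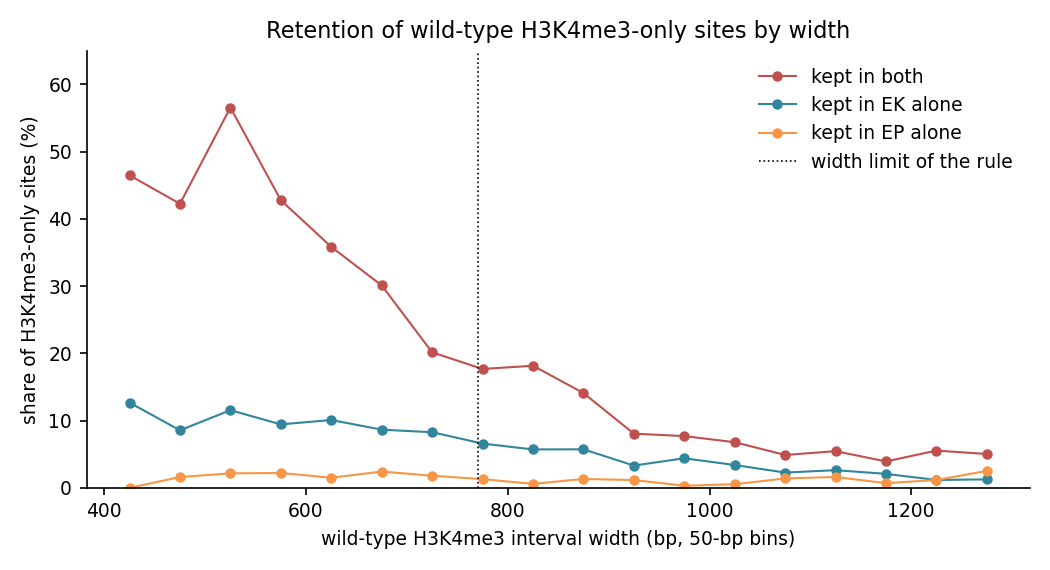
The y axis gives the share (%) of wild-type H3K4me3-only sites kept in both mutants, in EK alone or in EP alone, by wild-type interval width in 50-bp bins on the x axis; the dotted line is the 770 bp limit. The share kept in both is 56.6% in the bin that starts at 500 bp and 6.79% in the bin that starts at 1000 bp, and 17.7% in the bin that holds the limit.

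The 3 narrowest sites had broader intervals in both mutants than in wild type. The narrowest, within Palld on chromosome 8 (61642340 to 61642470), which encodes an actin-binding protein, was 131 bp in wild type against 497 bp for EP and 559 bp for EK. The next, within Mllt11 on chromosome 3 (95219058 to 95219206), was 149 bp in wild type and 643 bp in both mutants. It lay 13 bp from another narrow site, of 481 bp, and both were covered by 1 EP and 1 EK interval, so these 2 are not independent. The third, within Epha3, an ephrin receptor gene, on chromosome 16 (63687367 to 63687522), was 156 bp in wild type against 200 bp for EP and 286 bp for EK. In all, 7 EP intervals and 9 EK intervals each overlapped 2 or more of the sites, so that 14 sites shared an EP interval and 18 shared an EK interval with another.

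Few of the sites were double-marked in a mutant. By the choice of sites, none was double-marked in wild type. In EP 36 were (3.04%, 2.20 to 4.18%), against 11.1% over all sites kept in both, which include those double-marked in wild type. In EK 30 were (2.53%, 1.78 to 3.59%), against 8.33% over the same kept sites. The 30 rest on 29 EK double-marked intervals, because the pair of sites in Mllt11 shares 1. There were 22 double-marked in EP alone, 16 in EK alone and 14 in both. The difference between the mutants of 0.506 percentage points did not pass the threshold (two-sided exact McNemar test, p = 0.418). The EP and EK H3K36me3 libraries were both new, and the wild-type library was earlier data. A double-marked interval in a mutant at a site without one in wild type therefore compares libraries of different origin, and gain of the mark and library cannot be told apart.

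Compared with the wider H3K4me3-only sites kept in both mutants, the narrow ones were double-marked less often in EK. In EK the shares were 2.53% and 5.11% (36 of 705; odds ratio 0.483, 0.284 to 0.815; Fisher's exact test, Benjamini-Hochberg adjusted over 4 tests, p = 0.00553). That difference did not pass the threshold with a width limit of 600 bp (exact test, adjusted p = 0.115) or when each mutant interval had to reach the lower quartile of widths in its list (exact test, adjusted p = 0.114). In EP the shares were 3.04% and 4.54% (32 of 705; odds ratio 0.659, 0.394 to 1.11), which did not differ past the threshold (adjusted p = 0.0975 by the same exact test). With a width limit of 900 bp the EP difference was -2.65 percentage points and passed it (exact test, adjusted p = 0.0155), and the EK difference was -4.36 (exact test, adjusted p = 0.000122). Narrow sites that were double-marked in wild type gave much higher shares under the same width limit and with the same retention. There 36 of 104 were double-marked in EP (34.6%, 26.2 to 44.2%; Fisher's exact test, adjusted p = 8.93e-23) and 37 of 104 in EK (35.6%, 27.0 to 45.1%; Fisher's exact test, adjusted p = 3.12e-25).

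**Figure D3:**
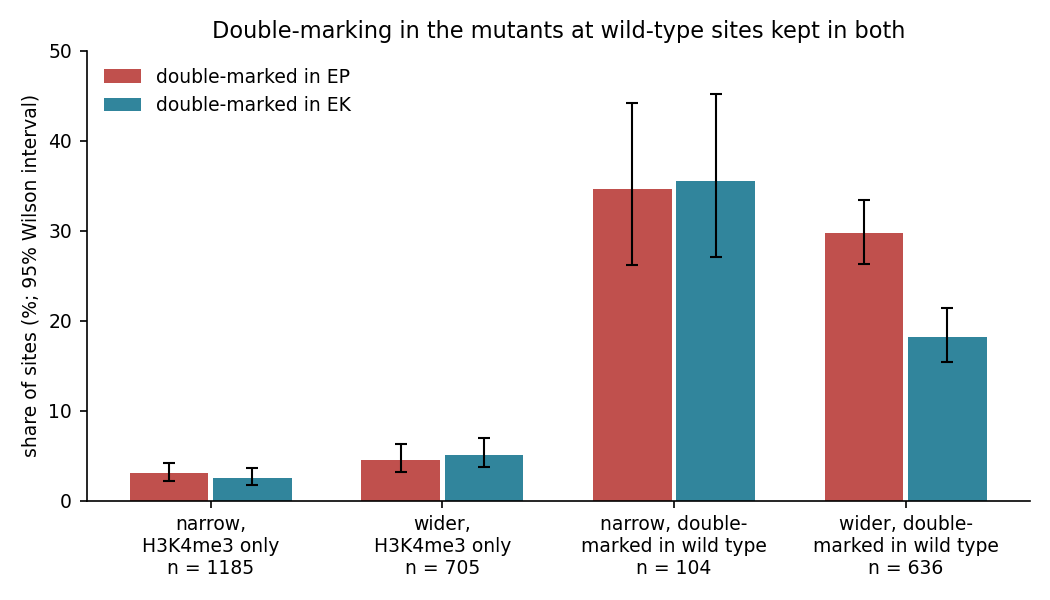
Bars give the share (%) of wild-type sites kept in both mutants that were double-marked in EP or in EK, with 95% Wilson intervals, for 4 classes of sites set by wild-type width and wild-type double-marking. The narrow H3K4me3-only class has the lowest bars, 3.04% in EP and 2.53% in EK.

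Every double-marked site lay inside a protein-coding gene, which here means between the annotated start and end of the gene; exons and introns were not separated. Of the 52 sites double-marked in EP or EK, 52 lay in such a span (100%, 93.1 to 100%), against 626 of the 1133 other narrow sites (55.3%, 52.3 to 58.1%; Fisher's exact test, Benjamini-Hochberg adjusted over 6 tests, p = 3.66e-13). This held for each subset, with 22 of 22 in EP alone, 16 of 16 in EK alone and 14 of 14 in both. The background over all kept wild-type sites with mutant double-marking was 74.2% in a gene span. For the wider H3K4me3-only sites the numbers were 52 of 54 double-marked in a mutant and 430 of 651 others (66.1%). For the narrow sites double-marked in wild type they were 43 of 47 and 34 of 57. For the wider sites double-marked in wild type they were 124 of 212 (58.5%) and 158 of 424 (37.3%).

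**Figure D4:**
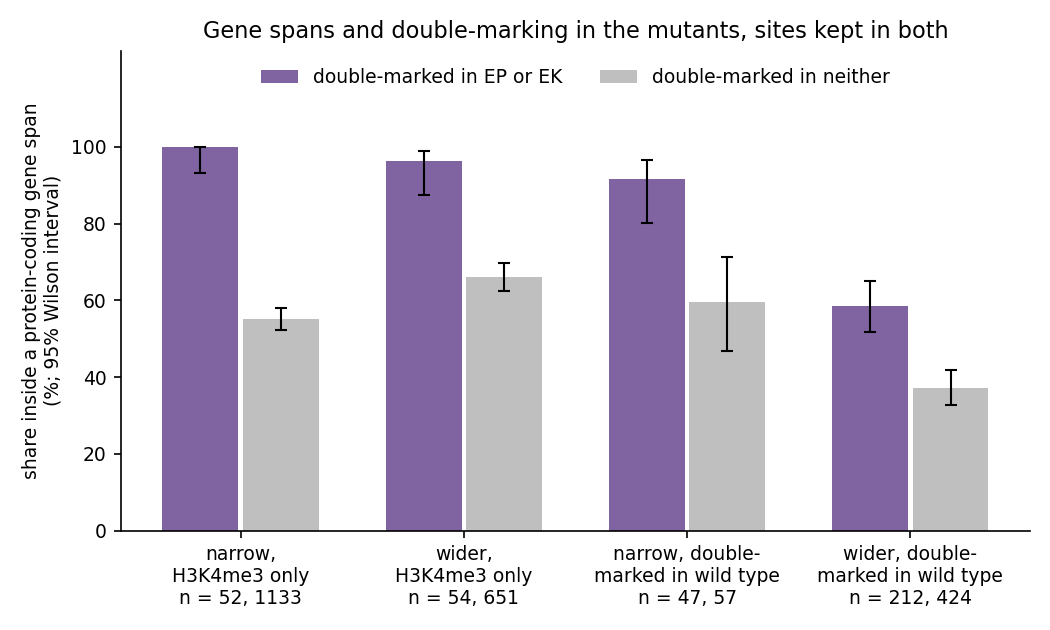
Bars give the share (%) of sites inside a protein-coding gene span, with 95% Wilson intervals, for sites double-marked in EP or EK and for the others, in 4 classes of wild-type sites kept in both mutants; n gives the number of sites behind each pair of bars. The narrow H3K4me3-only class has 100% against 55.3%, and the wider class double-marked in wild type 58.5% against 37.3%.

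Among sites in gene spans, the double-marked ones more often lay near a protein-coding gene boundary. That boundary could belong to a neighbouring gene, as at Krtcap2, where that of Trim46 was nearest, at 1078 bp. A gene boundary was within 5 kb of 29 of the 52 (55.8%), against 222 of the 626 other narrow sites in a gene span (35.5%; Fisher's exact test, adjusted p = 0.00532). With genes of any biotype this difference was 12.0 percentage points and did not pass the threshold (exact test, adjusted p = 0.136). On chromosomes with start windows, 24 of 50 double-marked sites (48%, 34.8 to 61.5%) and 163 of 613 others in gene spans (26.6%, 23.2 to 30.2%) had their centre up to 5 kb downstream of a gene start. The double-marked interval was usually the whole of the mutant's H3K4me3 interval: the widths were equal at 22 of the 36 EP sites and 23 of the 30 EK sites. Its median width was 420.5 bp in EP (range 127 to 681 bp) and 498 bp in EK (range 129 to 751 bp).

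Single genes are given for 10 of the 14 sites that carried both marks in EP and in EK, those with the widest double-marked EP interval. At Polr2a, which encodes the largest subunit of RNA polymerase II (gene 20020, chromosome 11, 69755402 to 69755994), the H3K4me3 interval was 593 bp in all 3 lists and the double-marked interval 593 bp in both mutants. At Srgap2, a GTPase-activating protein gene (14270, chromosome 1, 131523319 to 131523946), all of these widths were 628 bp. At Nt5c3, a pyrimidine nucleotidase gene (107569, chromosome 6, 56907707 to 56908349), they were 643 bp. In these 3 genes wild type and mutants had the same H3K4me3 interval and only the mutants a double-marked one.

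The next sites differed slightly between lists. In Smco4 (170748, chromosome 9, 15526469 to 15527149) the H3K4me3 interval was 681 bp in all lists, and the double-marked one 681 bp for EP and 649 bp for EK. Within Elavl1, which encodes the RNA-binding protein HuR (15568, chromosome 8, 4322440 to 4322983), the H3K4me3 widths were 544 bp in wild type against 545 bp for EP and 558 bp for EK, and both mutant intervals were double-marked over their whole width. In Lsm8, a gene for a subunit of the U6 small nuclear RNA ring (76522, chromosome 6, 18850303 to 18850852), the widths were 550, 535 and 512 bp, again double-marked throughout in both mutants. The Elavl1, Lsm8, Polr2a and Srgap2 sites lay 2117, 1668, 2639 and 3415 bp downstream of the start of the gene named. Upstream of their nearest start lay the Nt5c3 site, 5821 bp from that of Nt5c3, and the Smco4 site, 6467 bp from that of Gm46152.

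At 3 of the other 4 sites a mutant was double-marked over part of its H3K4me3 interval. In Nt5c2, which encodes a purine nucleotidase (76952, chromosome 19, 46959600 to 46960288), the H3K4me3 widths were 689 bp in wild type against 652 bp for EP and 689 bp for EK, with double-marked widths of 506 and 468 bp. In Dnajc13, an endosomal co-chaperone gene (235567, chromosome 9, 104260415 to 104261074), they were 660, 672 and 790 bp, with 372 and 297 bp double-marked. In Osbpl9, an oxysterol-binding protein family gene (100273, chromosome 4, 109155928 to 109156503), the EK interval was the shorter one, at 236 bp against 564 bp in EP and 576 bp in wild type, and both mutant intervals were double-marked over their whole width. In Akr1b8, an aldo-keto reductase gene (14187, chromosome 6, 34356977 to 34357501), the widths were 525 bp in wild type against 374 bp for EP and 353 bp for EK, with 326 bp double-marked in EP and the whole 353 bp in EK.

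The narrow kept sites lay near gene boundaries more often than narrow sites that neither mutant kept. These 2 groups share the width limit but are not matched for width here or in the comparisons below. Their median wild-type widths were 582 bp and 669 bp. One end or the other of a protein-coding gene lay within 1 kb of 84 of the 1185 sites (7.09%, 5.76 to 8.69%), compared with 3.85% of all wild-type sites. Among the 1817 narrow H3K4me3-only sites kept in neither mutant it was 33 (1.82%, 1.30 to 2.54%; odds ratio 4.12, 2.71 to 6.41; Fisher's exact test, Benjamini-Hochberg adjusted over 8 tests, p = 5.04e-12). Among the 705 wider H3K4me3-only sites kept in both it was 42 (5.96%, 4.44 to 7.96%), not different past the threshold at 1 kb (exact test, adjusted p = 0.615). Gene starts alone gave a difference from sites kept in neither mutant of 2.34 percentage points in place of 5.27. That count also measured from the site centre and not its edge, left out chromosome 18 and used only genes with a start window. The change therefore cannot be put down to starts alone. From the site edge to starts of any biotype, a start lay within 1 kb of 7.46% of the sites and 1.67% of those kept in neither mutant. Within 5 kb of either end the shares were 30.6%, 12.9% and 24.1%, and the difference from the wider sites was then past it (6.52 percentage points; Fisher's exact test, adjusted p = 0.00514).

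More of the sites lay within 5 kb of a gene start than of all wild-type sites, and most of those lay downstream, as in the wider kept sites. Start positions were taken from RefSeq promoter windows, which covered 17492 of 21900 protein-coding genes and the chromosomes of 1153 of the sites. A site close only to genes without a window counted as not near a start but stayed among the 1153. The site centre was within 5 kb of a protein-coding gene start at 277 of these 1153 (24.0%, 21.6 to 26.6%), against 7.59% of all wild-type sites. It was so at 96 of 1742 narrow sites kept in neither mutant (5.51%, 4.53 to 6.68%; odds ratio 5.42, 4.22 to 7.01; Fisher's exact test, adjusted p = 1.25e-46). It was also so at 94 of 680 wider sites kept in both (13.8%, 11.4 to 16.6%; odds ratio 1.97, 1.52 to 2.58; Fisher's exact test, adjusted p = 2.11e-07). Of the 277, 193 lay downstream and 84 upstream (69.7% downstream, 64.0 to 74.8%), with 57.7% downstream over all wild-type sites that near a start. The 96 sites kept in neither mutant divided into 49 downstream and 47 upstream (51.0%; Fisher's exact test of the difference, adjusted p = 0.00187), although with a width limit of 600 bp that difference did not pass the threshold (exact test, adjusted p = 0.271). With genes of any biotype it was 10.7 percentage points in place of 18.6 (exact test, adjusted p = 0.0366). The wider kept sites were 71.3% downstream, without a difference past the threshold (exact test, adjusted p = 0.796; odds ratio 0.926, 0.530 to 1.59).

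The position by 1-kb steps is a description with no test, and shares over all wild-type sites were not computed for the steps. From 1 to 2 kb downstream of a start there were 79 sites (6.85%), from 2 to 3 kb 62 (5.38%), and from 3 to 4 kb 22 (1.91%). Upstream, the step from 1 to 2 kb held 40 (3.47%) and that from 2 to 3 kb 14 (1.21%). Only 31 sites had their centre within 1 kb of a start. Of 680 wider H3K4me3-only sites kept in both, 10 (1.47%) lay 1 to 2 kb downstream, 17 (2.5%) 2 to 3 kb and 22 (3.24%) 3 to 4 kb. The sites kept in neither mutant had between 0.172% and 0.918% in each of these steps. How gene starts were treated when that site set was made is not given in the sources used here. The narrow sites double-marked in wild type and kept in both had higher shares still: 47 of 102 within 5 kb of a start (46.1%, 36.7 to 55.7%), 43 of them downstream and 4 upstream. From 1 to 3 kb downstream there were 31 of these 102 (30.4%) against 141 of the 1153 H3K4me3-only sites (12.2%), a difference that was not tested.

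**Figure D5:**
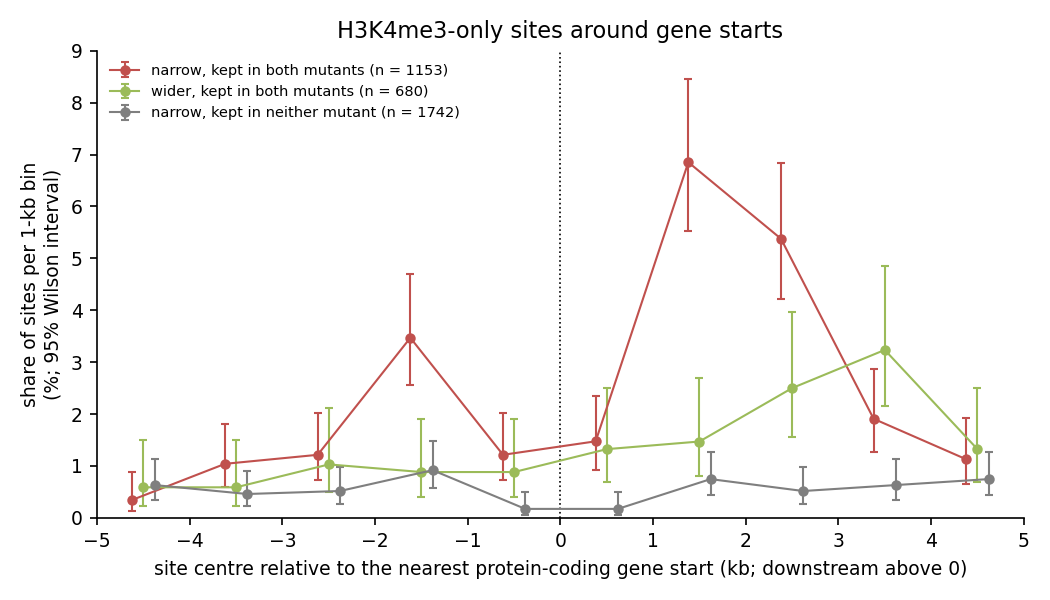
Points give the share (%) of H3K4me3-only sites per 1-kb bin of distance from the site centre to the nearest protein-coding gene start, with 95% Wilson intervals; positive distances are downstream. The narrow sites kept in both mutants peak at 6.85% from 1 to 2 kb downstream, while those kept in neither stay between 0.172% and 0.918%. The wider sites kept in both peak at 3.24% from 3 to 4 kb downstream.

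Among sites that overlapped a gene boundary, at either end of the gene, 9 of the widest are given. The widest, on the start of Mrln (69563, chromosome 10, 70204481 to 70205233; its sequence is given above), was 753 bp in all 3 lists. At Brip1, which encodes a DNA helicase that partners BRCA1 (237911, chromosome 11, 86058058 to 86058779), it was 722 bp in all 3. Tmem235 (546519) and Adh6a (69117), an alcohol dehydrogenase gene, likewise had 1 width in all lists, of 635 and 604 bp. The interval was thus the same in the 3 lists at 4 of the 9.

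Of the other 5, 4 were narrower in EP than in wild type and 1, at Tmem179b, was wider. At Ddx25, a testis RNA helicase gene (30959, chromosome 9, 35541433 to 35542106), the widths were 674 bp in wild type against 600 bp for EP and 680 bp for EK. At Cst8 (13012, chromosome 2, 148798215 to 148798884) they were 670, 301 and 358 bp. At Tyro3, a receptor tyrosine kinase gene (22174), they were 574, 534 and 574 bp. At Tmem95, which encodes a sperm membrane protein needed for fertilisation (100503361), they were 571, 429 and 522 bp, and at Tmem179b (67706) 561, 579 and 579 bp. None of these 9 was double-marked in either mutant.

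A little over 50% of the sites lay in protein-coding genes, a share near that over all wild-type sites. A protein-coding gene span held 678 of the 1185 (57.2%, 54.4 to 60.0%), against 54% of all wild-type sites. It held 884 of the 1817 narrow sites kept in neither mutant (48.7%, 46.4 to 51.0%; Fisher's exact test, adjusted p = 1.35e-05), and 482 of the 705 wider kept sites (68.4%, 64.8 to 71.7%; Fisher's exact test, adjusted p = 6.55e-06). The share was therefore higher than in the narrow sites kept in neither mutant and lower than in the wider kept sites. The first of these differences did not pass the threshold with a width limit of 600 bp (exact test, adjusted p = 0.161), where the second was -6.97 percentage points in place of -11.2. The first was 8.56 points as given, 5.33 without sites identical in all 3 lists and 13.2 with the quartile rule on mutant widths. A further 109 sites lay only in genes of other biotypes and 398 in no annotated gene, and none overlapped a microRNA gene. Shares over all wild-type sites were not computed for these counts. The 678 sites fell in 635 genes, 45 of which held 2 or more and 4 of which held 3 or more. Bbs9, a Bardet-Biedl syndrome gene needed for primary cilia, held 5, and Bcas3, Srpk2 and Tsc22d1 held 3 each; these 4 genes are named because their counts were seen to be the highest.

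Genes of meiosis were among those with a site, in small numbers. Of 49 genes of meiotic prophase, 4 had a site in their span or within 1 kb (8.16%), against 681 of all 21900 protein-coding genes (3.11%). In Hormad1, which encodes a protein of the meiotic chromosome axis (67981, chromosome 3, 95561196 to 95561697), the interval was 502 bp in wild type against 219 bp for EP and 502 bp for EK, and the EK interval was double-marked over 502 bp. In Iho1, whose product acts with HORMAD1 in break formation (434438, chromosome 9, 108405142 to 108405665; the span of 1700102P08Rik also holds the site), the widths were 524, 132 and 238 bp. In Tdrd1, a piRNA pathway gene (83561, chromosome 19, 56835658 to 56836159), they were 502, 382 and 520 bp. In Tex14, needed for the bridges between germ cells (83560, chromosome 11, 87428163 to 87428591), they were 429, 280 and 321 bp. All 4 intervals were narrower in EP than in EK.

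Lists for other cells of the testis held few sites. For Sertoli cells it was 1 of 10 genes, Inha, which encodes the inhibin alpha subunit (16322, chromosome 1, 75510673 to 75511275), where the site lay outside the gene, 307 bp from its boundary, and measured 603 bp in wild type against 274 bp for EP and 583 bp for EK. For spermatogonia (11 genes), spermatids (8), Leydig cells (6), peritubular cells (3) and macrophages (3) it was 0. Counts this small are a description. Because every list is limited to PRDM9-dependent sites, the labelled cell type could not be checked from its markers.

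The sites were spread over all autosomes and the X chromosome. The 19 autosomes held between 32 and 97 sites each, or 4.73 to 8.29% of their wild-type H3K4me3 intervals. The X chromosome held 38 (3.21%, 2.35 to 4.37%), with 3.38% of all wild-type sites X-linked. The X-linked share was 2.81% in narrow sites kept in neither mutant and 2.70% in the wider kept sites, neither of which differed past the threshold (adjusted p = 0.615 for both, exact tests). With a width limit of 600 bp the difference from sites kept in neither mutant was 2.55 percentage points (exact test, adjusted p = 0.0102), and with mutant intervals that reach their list's lower quartile it was 1.86 (exact test, adjusted p = 0.0406). The Y chromosome had 8 wild-type intervals and none of these sites. The widest X-linked site, within Arhgef6, a guanine nucleotide exchange factor gene (73341, 57337395 to 57338163), was 769 bp in wild type against 751 bp for EP and 769 bp for EK. The next, outside annotated protein-coding genes at 158976737 to 158977483, was 747 bp in all 3 lists.

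Neighbouring intervals were few. Another wild-type H3K4me3 interval lay within 5 kb of 151 of the sites (12.7%, 11.0 to 14.8%), compared with 10.8% of all wild-type sites. It was 15.5% for narrow sites kept in neither mutant (exact test, adjusted p = 0.0762) and 11.9% for the wider kept sites (exact test, adjusted p = 0.615). The first difference, of -2.78 percentage points, depended on the setting. It passed the threshold in 4 alternatives: neighbours within 2 kb (-3.38), a width limit of 600 bp (-7.72), an overlap of 50% (-3.09) and autosomes only (-3.03), with adjusted p-values from 0.0022 to 0.0466 by the exact test. It turned to 0.634 after wild-type intervals within 500 bp were merged and to 0.0550 for neighbours within 20 kb. No site had more than 2 other intervals that near. In Tsc22d1, a leucine zipper gene (21807, chromosome 14, 76426622 to 76427385), a site with 2 such neighbours was 764 bp in wild type against 430 bp for EP and 415 bp for EK. Both sites of Cst8 also had 2, and the second (148799843 to 148800490) was 648, 381 and 365 bp.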

How the data were processed

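Each list, per the authors' deposited description, keeps only those peaks of 1 genotype that fall at PRDM9-dependent sites defined on mm10 in an earlier series, so a peak elsewhere could not enter. Chromatin was cut with MNase, per the labels' protocols. The submitters' processing notes name Trimmomatic, BWA 0.7.9a and MACS 1.4, with no role per list. The 6 lists give positions only, and 6 of the 9 libraries are labelled as re-analysed.

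Lists were compared in Python 3.11.15 with pandas 2.3.3 and SciPy 1.17.1. Where a site had several mutant intervals, their widths were summed. Shares have 95% Wilson intervals, which cover sampling of intervals only, and shares were compared by two-sided Fisher's exact tests with a threshold of 0.05. Benjamini-Hochberg adjustment was made over 4 tests of double-marking, 8 of position and 6 added after the lists were seen (gene spans and distances of double-marked sites, gene starts and their side). The interval code was checked on simulated data. Genes came from a RefSeq table of GRCm38.p6 (49997 genes with coordinates) and starts from 32851 RefSeq promoter windows. Chromosome 18, with 32 of the sites, was not analysed here for starts or sequence.

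The sites, gene lists and tests were chosen with earlier results of these data known. Named sites were, by rule, up to 10 double-marked in both mutants (widest double-marked EP interval first), up to 10 nearest a gene boundary (ties by width), the 3 widest and 3 narrowest, the 3 just outside the limit, up to 3 X-linked, up to 6 at listed genes and the 3 with most neighbours. One site that these rules name is not reported here.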

Additional observations from a re-analysis of the deposited data

Results flagged for a closer look

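The direct comparison of the mutants at the same sites gave unequal numbers: the EK interval was the wider at 78.9% of the 833 narrow sites with unequal widths. The share ran from 78.5 to 81.2% over the alternatives tried. Its cause was not tested.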

How the results depend on the processing

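Of 209 values under 14 alternatives, 187 were classed as unchanged, including the share with the wider EK interval without sites identical in all 3 lists, which could not change. Where there was a test, these kept their side of the threshold and their direction, with 1 exception in direction. The exception was boundaries within 1 kb against wider sites, where the difference was 0 with the 900 bp limit in place of 1.13. With no test, values classed as unchanged stayed within 1.5 times the main count or the 95% interval of the main share. The number of sites was 653 with a limit of 600 bp and 626 when mutant intervals had to reach the lower quartile of their list; both follow from tighter criteria, and the cause of the other changes was not tested. Differences below are in percentage points. The calls lost were those of EK double-marking, gene spans and the downstream share at 600 bp, EK double-marking under the quartile rule and boundary distances with any biotype; the calls gained were those of EP double-marking at 900 bp, X-linkage, boundaries within 5 kb from wider sites, and neighbours at 600 bp, at 50% overlap, on autosomes and within 2 kb. With the 600 bp limit, the difference in EK double-marking from wider sites was -1.59, that in gene spans from sites kept in neither mutant 4.93, that in the downstream share 11.4, that in X-linkage 2.55 and that in neighbours -7.72, and the downstream difference from wider sites reversed to 0.287. With the 900 bp limit, EP double-marking differed from wider sites by -2.65 and the downstream share by 1.69. With the quartile rule, EK double-marking differed by -1.81, X-linkage by 1.86, the downstream share from wider sites by 0.525 and neighbours from wider sites by -0.750. The difference in neighbours from sites kept in neither mutant was -3.09 with an overlap of 50%, -3.03 on autosomes, 0.634 after merging, -3.38 within 2 kb and 0.0550 within 20 kb, where that from wider sites was -0.989. Boundaries within 5 kb differed from wider sites by 6.52, and boundary distances of double-marked sites by 12.0 with genes of any biotype.

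The gene-span difference of the double-marked sites ran from 35.1 to 48.1 and passed the threshold in all 10 alternatives. No paired analysis was possible because each genotype has 1 list, so samples could not be paired and no replicate could be left out; the tests of EP against EK pair sites only. Read depth is unknown, so a missing interval is not evidence that a mark was absent.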
